A study of Mus musculus with 59 samples.

Results

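The enzymes of cholesterol synthesis and the genes around them that SREBP2 controls were examined in embryoid bodies exposed to mouse serum. Members were the rows whose symbols stood on a list of 30 names in pathway order, and 28 of them had a row among the 19613 genes of the deposited table. Hmgcs1 had none, and Msmo1 and Sc4mol name 1 gene, which the table holds under the older symbol Sc4mol. The 28 comprised 7 enzymes of the mevalonate stage, 11 enzymes of the squalene and sterol stage, 4 genes for SREBP2 and its regulators, 4 sterol transport genes and 2 genes that activate acetate or acetoacetate.

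Embryoid bodies were grown from HBG3 HB9 mouse embryonic stem cells, which carry a green fluorescent reporter of the motor neuron gene Mnx1 (HB9), and were driven towards spinal motor neurons with retinoic acid and a Hedgehog agonist. They hold other cell types beside motor neurons, and all of them came from this 1 stem cell line. For 24 h they received 5% serum from male mice hemizygous for a human mutant SOD1 transgene, before symptoms of their motor neuron disease (carrier serum, 29 arrays), or from littermates without the transgene (non-carrier serum, 30 arrays). The labels give the strain of all samples as F1 of C57BL/6 and SJL. The labels give 9 weeks for 26 carrier and 27 non-carrier arrays and 10 weeks for 3 arrays of each kind. RNA of each culture was measured on an Affymetrix mouse exon array, and the values below are RMA intensities, each the mean over the exons of a gene.

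Cells build cholesterol from acetyl-CoA. The mevalonate enzymes make the isoprenoid units, which are joined into farnesyl diphosphate, and the squalene and sterol enzymes turn farnesyl diphosphate into squalene, lanosterol and, after demethylation and rearrangement of double bonds, cholesterol. SREBP2, the product of Srebf2, is held in the endoplasmic reticulum by SCAP and the INSIG proteins when sterols are plentiful. When sterols fall it moves to the Golgi, is cut there and switches on nearly all enzymes of the route together. In nervous tissue cholesterol is made locally, by glia and by developing neurons, because that of the blood lipoproteins does not enter.

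The arrays fell into 9 runs by their titles, each with both kinds of serum. They are named here as in the titles (motorneuron, HB9MNs, 10wk) or, where the titles hold only numbers, A to F in the order of those numbers. Median intensities of single arrays were 151 to 183. A carrier array of run E correlated least with the other arrays of its run (mean Pearson's r 0.979), followed by a non-carrier array of the run motorneuron (0.985). Transcripts that mark the cultures were measured beside the members. Mnx1, Isl1, Isl2, Lhx3, Chat and Slc5a7 of 7 motor neuron markers had a row. The log2 of their summed intensity was 11.74 to 12.23 with carrier serum and 11.73 to 12.18 with non-carrier serum. For 4 of 5 markers of astrocytes and radial glia the sums were 12.75 to 13.30 and 12.60 to 13.36. Those of 4 of 5 neuron markers were 13.74 to 14.13 and 13.73 to 14.08. For the 4 markers of pluripotent cells the sums were 7.80 to 8.72 and 7.84 to 8.62. Such sums follow the brightest rows, as with the markers of astrocytes and radial glia. There Fabp7 had a mean log2 intensity of 12.92 with carrier serum, while Gfap, Aqp4 and Aldh1l1 had 6.53, 6.26 and 7.19. No intensity in the table was 0. A change in transcripts per cell and a change in the share of a cell type cannot be told apart in such cultures.

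The promoters of 3 sterol enzymes are shown because the letters CCAAT and GGGCGG, marked in them, occur in most members. They are those of Hsd17b7, which changed most with carrier serum, of Nsdhl, whose product acts just before that of Hsd17b7 in removing the methyl groups at carbon 4, and of Lss, which makes lanosterol. The windows run from 250 bases before to 50 bases after the start of the RefSeq transcript in GRCm38.p6, 5′ to 3′ on the strand of the gene. They lie at chr1:169969156-169969455 on the minus strand (Hsd17b7), chrX:72918271-72918570 on the plus strand (Nsdhl) and chr10:76531355-76531654 on the plus strand (Lss). Capitals mark CCAAT, the letters bound by NF-Y, and GGGCGG, those bound by Sp1, on either strand.
Hsd17b7: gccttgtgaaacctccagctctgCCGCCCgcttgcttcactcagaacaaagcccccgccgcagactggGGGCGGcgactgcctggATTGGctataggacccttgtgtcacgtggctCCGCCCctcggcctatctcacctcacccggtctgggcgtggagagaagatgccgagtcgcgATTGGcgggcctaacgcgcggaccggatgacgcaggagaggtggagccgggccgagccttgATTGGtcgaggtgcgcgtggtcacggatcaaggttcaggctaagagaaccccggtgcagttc
Nsdhl: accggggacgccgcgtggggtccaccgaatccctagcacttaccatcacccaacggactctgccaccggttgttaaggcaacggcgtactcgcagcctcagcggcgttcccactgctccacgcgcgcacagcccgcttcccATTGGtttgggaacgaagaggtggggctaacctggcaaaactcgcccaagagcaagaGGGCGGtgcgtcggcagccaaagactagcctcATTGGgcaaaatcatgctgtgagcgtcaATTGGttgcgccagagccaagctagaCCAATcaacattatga
Lss: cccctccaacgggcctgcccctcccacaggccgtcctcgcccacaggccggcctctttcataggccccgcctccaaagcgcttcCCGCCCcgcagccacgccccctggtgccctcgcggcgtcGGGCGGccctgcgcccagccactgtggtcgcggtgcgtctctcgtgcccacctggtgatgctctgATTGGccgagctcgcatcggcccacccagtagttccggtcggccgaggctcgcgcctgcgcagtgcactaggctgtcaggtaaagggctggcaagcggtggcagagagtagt

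NF-Y and Sp1 are the general factors that SREBP2 is known to act beside. RefSeq windows were at hand for 23 of the 28 members, 29 windows in all because some genes have several starts. Fdps, Fdft1, Sqle, Stard4 and Npc1 had no window. CCAAT stood in 20 of the 29 windows (69%) and in 37.4% of the 32851 windows of all genes. Hsd17b7 held it 3 times, Nsdhl 4 times and Mvk 5 times, while the windows of Aacs, Acat2 and Scap and some windows of Dhcr7, Insig2 and Pmvk held none. GGGCGG stood in 22 of the 29 (75.9%) and in 35.7% of all. The sterol regulatory letters TCACCCCAC stood in 0 of the 29 windows and in 0.551% of all, TCACNCCAC in 0 and in 1.24%, and the palindrome TCACGTGA in 0 and in 0.974%. These shares are descriptions of the letters in 300 bases, and some genes enter with several windows. Sites that depart from these letters, or that lie outside the windows, were not counted.

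To ask how the route responded to carrier serum, log2 intensities were fitted with limma over all genes with the run as a block. With carrier serum 23 of the 28 members lay higher and 5 lower, whereas 61.1% of all genes lay higher. The median change of the members was 0.05 on the log2 scale, that of the 18 enzymes with a row 0.07, and that of all genes 0.02. After Benjamini-Hochberg adjustment over all genes, 1 member was higher at an adjusted p under 0.05, where 0.683% of all genes were, and 0 members were lower, where 1.65% were. At an unadjusted p under 0.05 there were 12 members higher and 1 lower, against 12% and 8.68% of all genes, and 11 of these 12 were enzymes of the route. The members were chosen with earlier results of these arrays known, so no test of the list was made. Those 12 were Acat2, Mvk, Mvd, Fdps, Fdft1, Sqle, Lss, Cyp51, Tm7sf2, Nsdhl, Hsd17b7 and Npc1l1.

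**Figure D1:**
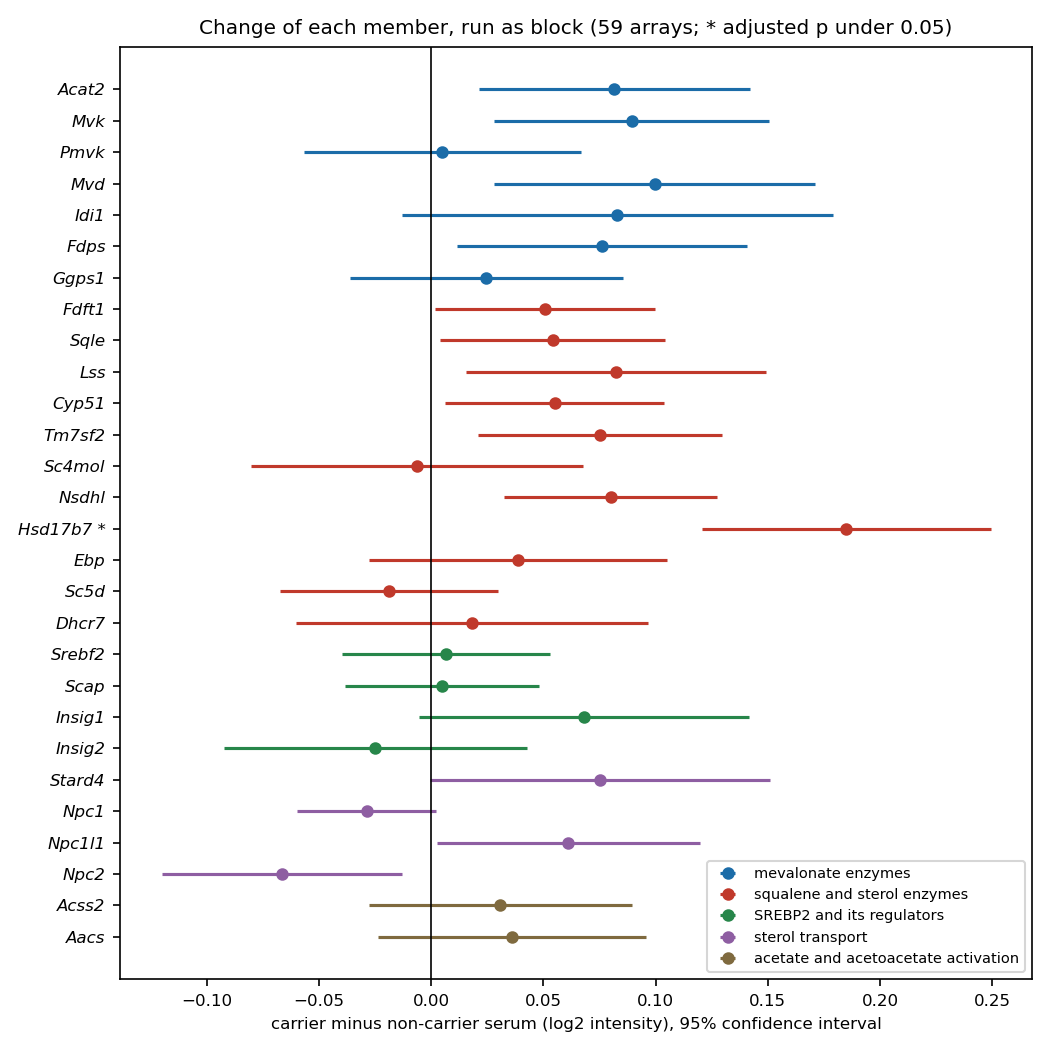
The carrier minus non-carrier difference of each member in log2 intensity (x axis), in pathway order (y axis) and coloured by role. Points are limma estimates over 59 arrays with the run as a block, and lines are 95% confidence intervals. The asterisk marks Hsd17b7 at 0.18, the 1 member past an adjusted p of 0.05, and most enzymes lie to the right of 0 at under 0.10.

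Hsd17b7 rose most. It encodes the sterol 3-keto reductase that completes the removal of each methyl group at carbon 4 of the sterol. With carrier serum its intensity was 533 at the lowest, 634 at the median and 706 at the highest array, and with non-carrier serum 365, 547 and 654. The 2 distributions overlapped, but only 2 of the 30 non-carrier arrays lay above the carrier median. The mean log2 intensity was 9.28 ± 0.13 (SD, n = 29) and 9.09 ± 0.17 (SD, n = 30). The limma difference was 0.18 on the log2 scale (SE 0.03, 95% confidence interval 0.12 to 0.25), or 13.7%, with an adjusted p of 8.65e-04, the 10th smallest p of all genes. The p-values are two-sided and measure the spread between arrays within runs, part of which may be technical. With no block for the run limma's adjusted p was 0.286, and in the 12 arrays of runs E and F alone it was 0.267, at differences of 0.19 and 0.20.

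Within runs, carrier serum gave the higher mean of Hsd17b7 in 9 of 9. In 6 runs the arrays of the 2 sera did not overlap. Run D showed the greatest difference (0.36 on the log2 scale), with intensities of 683 to 695 in 3 carrier and 482 to 566 in 4 non-carrier arrays. In the run 10wk they were 533 to 581 and 365 to 520, in run F 670 to 706 and 543 to 597, and in run A 627 to 674 and 494 to 575. Runs B and HB9MNs also separated, with 622 to 635 against 479 to 596 and 650 to 684 against 533 to 634. The sera overlapped in the other 3 runs, at differences of 0.12 in run E, 0.03 in the run motorneuron and 0.02 in run C, where carrier arrays ran from 564 to 684 and non-carrier arrays from 591 to 654.

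Nsdhl, the decarboxylating sterol dehydrogenase that acts just before the HSD17B7 step, came next by p among the members. Its intensity was 1295, 1730 and 1937 at the lowest, median and highest carrier array and 1063, 1636 and 1939 at the non-carrier arrays. These ranges lay largely over each other, and the 2 sera did not overlap in 4 of 9 runs, A, F, 10wk and HB9MNs. The limma difference was 0.08 (SE 0.02), higher in 8 of 9 runs, with an adjusted p of 0.0533. In run C alone its carrier mean was lower, by 0.03.

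**Figure D2:**
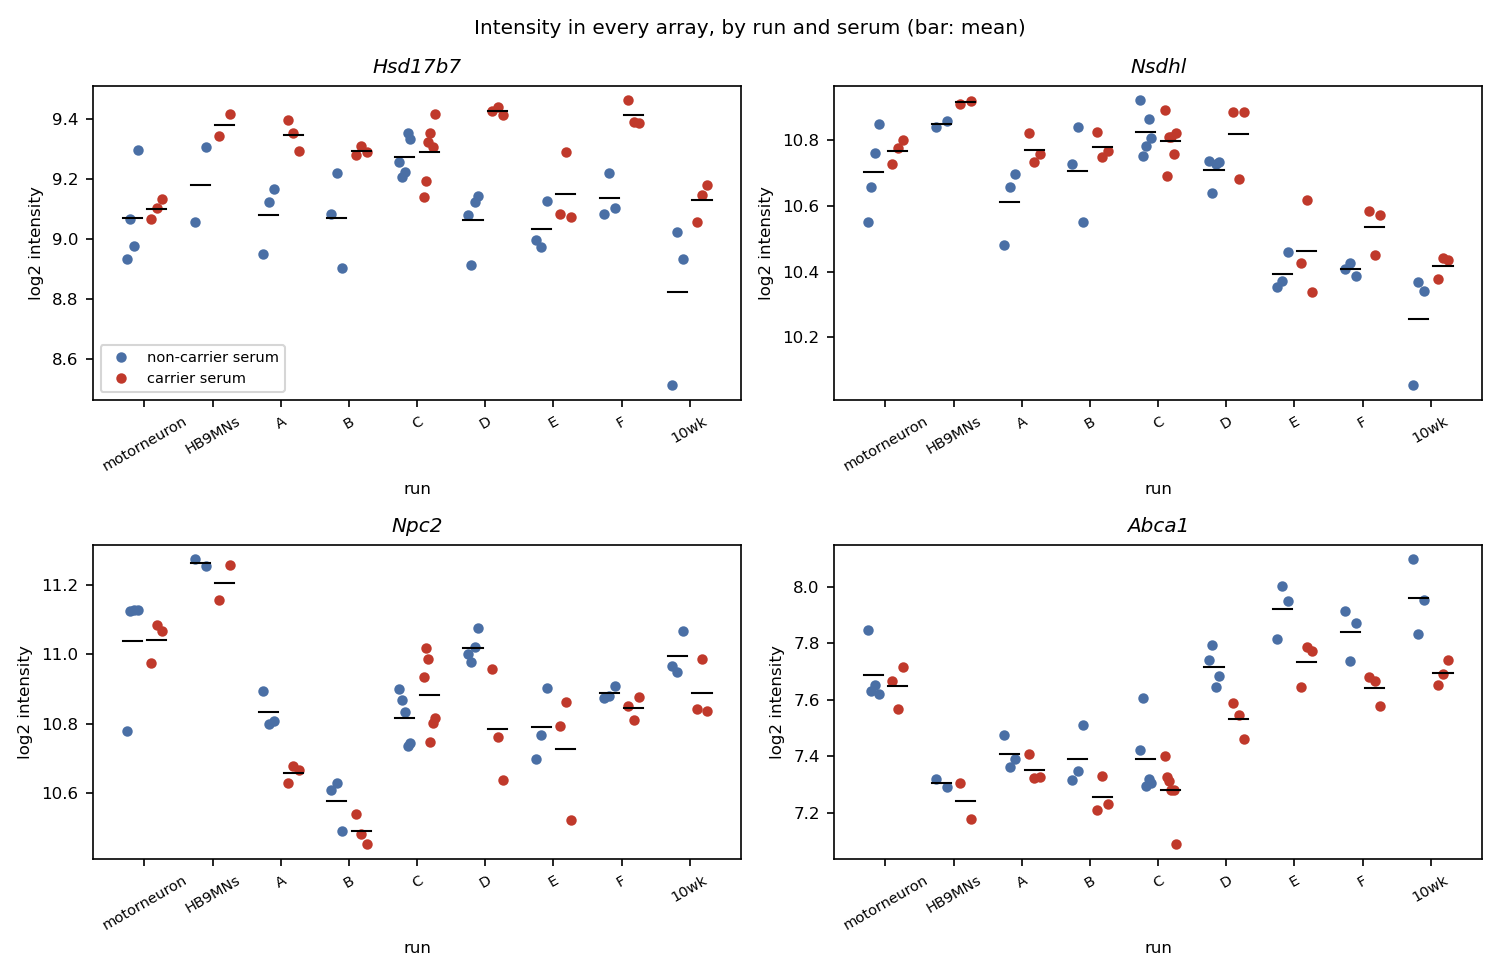
Log2 intensity (y axis) of Hsd17b7, Nsdhl, Npc2 and Abca1 in each of 59 arrays, by run (x axis) and serum (blue, non-carrier; red, carrier), with a bar at the mean. Carrier arrays of Hsd17b7 lie above all non-carrier arrays of the same run in 6 of 9 runs, and those of Abca1, a cholesterol exporter, lie below in 4.

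The other sterol enzymes differed less. Tm7sf2, a sterol reductase of the double bond at carbon 14, had carrier intensities of 375 to 647 around a median of 530 and non-carrier intensities of 353 to 630 around 487. Its difference was 0.08 (SE 0.03, adjusted p 0.113 by limma) and it lay higher in 8 of 9 runs. Lss, lanosterol synthase, stood at 0.08 (SE 0.03, adjusted p 0.156), Cyp51, the lanosterol 14-demethylase, at 0.06 (adjusted p 0.192), Sqle, squalene epoxidase, at 0.05 (adjusted p 0.208) and Fdft1, squalene synthase, at 0.05 (adjusted p 0.228), each higher in 7 or 8 of 9 runs. The median intensity of Fdft1 was 3453 with carrier and 3296 with non-carrier serum. The last steps showed smaller values. Ebp, the sterol isomerase, stood at 0.04 (adjusted p 0.493), Dhcr7, which makes cholesterol from its last precursor, at 0.02 (adjusted p 0.803), and Sc5d, the desaturase before it, at -0.02 (adjusted p 0.668). Sc4mol, the methyl oxidase that opens carbon-4 demethylation ahead of Nsdhl and Hsd17b7, stood at -0.01 (95% confidence interval -0.08 to 0.07).

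All 7 mevalonate enzymes had a positive difference, and none passed the adjusted threshold. Mvk, mevalonate kinase, ran from 331 to 493 around a median of 430 with carrier serum and from 297 to 456 around 390 with non-carrier serum. Its arrays did not overlap in runs HB9MNs, D, F and 10wk. The difference was 0.09 (SE 0.03, adjusted p 0.0957 by limma), higher in 7 of 9 runs and lower in run C by 0.10. Mvd, which decarboxylates mevalonate diphosphate, ran from 143.6 to 454 around 348 and from 174 to 418 around 304. The lowest of all its arrays had received carrier serum, and the 2 sera overlapped in 5 of 9 runs. Its difference was 0.10 (SE 0.04, adjusted p 0.110), higher in 6 of 9 runs. Acat2, the cytosolic thiolase that opens the route, stood at 0.08 (SE 0.03, adjusted p 0.122) and Fdps, farnesyl diphosphate synthase, at 0.08 (SE 0.03, adjusted p 0.176), both higher in 8 of 9 runs. Idi1, the isomerase of the isoprenoid unit, had the same difference of 0.08 with a wider error (SE 0.05, adjusted p 0.308). Pmvk, phosphomevalonate kinase, stood at 0.01 (95% confidence interval -0.06 to 0.07), and Ggps1, which draws farnesyl diphosphate off to geranylgeranyl diphosphate, at 0.02 (-0.04 to 0.09).

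Of SREBP2 and its regulators none passed a threshold. Srebf2 itself ran from 1069 to 1766 around a median of 1568 with carrier serum and from 1200 to 1802 around 1538 with non-carrier serum. Its difference was 0.01, with a 95% confidence interval of -0.04 to 0.05. Scap stood at 0.00 (-0.04 to 0.05). Insig1, a sterol-sensing retention factor that is itself a strong SREBP2 target, ran from 430 to 1290 around 1002 and from 426 to 1420 around 942. With each serum 1 array, in run E (carrier) and in the run 10wk (non-carrier), lay far below all others, and the sera overlapped in 7 of 9 runs. Its difference was 0.07 (SE 0.04, adjusted p 0.276 by limma). Insig2, a retention factor that does not depend on SREBP2 in the same way, stood at -0.02 (SE 0.03, adjusted p 0.681) and was higher in 2 of 9 runs, with medians of 395 with carrier and 422 with non-carrier serum.

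Sterol transport genes went both ways. Npc2, a soluble carrier of cholesterol in the lysosome, ran from 1401 to 2448 around 1829 with carrier serum and from 1440 to 2476 around 1907 with non-carrier serum. In runs A and D all carrier arrays lay below all non-carrier arrays. The difference was -0.07 (SE 0.03, adjusted p 0.154 by limma), lower in 7 of 9 runs, and Npc2 was the 1 member below 0 at an unadjusted p under 0.05 (0.0159). Npc1, its membrane partner in the lysosome, stood at -0.03 (SE 0.02, adjusted p 0.277). Npc1l1, which takes up sterol in the gut, had medians of 68.8 and 64.3 and stood at 0.06 (SE 0.03, adjusted p 0.224). Stard4, a cytosolic sterol carrier and SREBP2 target, stood at 0.08 (SE 0.04, adjusted p 0.244), higher in 8 of 9 runs. The genes that activate acetate or acetoacetate gave values near 0.03. Acss2, acetyl-CoA synthetase, stood at 0.03 (SE 0.03, adjusted p 0.538) and Aacs, acetoacetyl-CoA synthetase, at 0.04 (SE 0.03, adjusted p 0.480). Their medians were 391.7 against 375.0 for Acss2 and 235 against 216 for Aacs, with overlap of the sera in 7 and 6 of 9 runs.

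Runs differed in how many members lay higher with carrier serum. All 18 enzymes did in the run HB9MNs, 17 in run F, 16 in runs B and D, 15 in the run 10wk and 14 in run A. In the same runs between 40.0% (HB9MNs) and 60.0% (F) of all genes lay higher. In runs C and E 10 of the 18 did, where 49.9% and 50.04% of all genes were higher, and in the run motorneuron 8, where 58.5% were. The median enzyme difference was highest in the run 10wk at 0.14 and lowest in the run motorneuron at -0.01. The test of a different serum response between runs passed for 0 of 28 members, with 0.127% of all genes passing, and the lowest adjusted p of a member was 0.560, for Aacs. Leaving out run C raised the members called to 6 higher (Mvk, Fdps, Sqle, Tm7sf2, Nsdhl and Hsd17b7) and 1 lower (Npc2), while the share of all genes called higher was then 3.48%, and the genes called lower rose from 323 to 918. Leaving out the 2 arrays least alike to their runs gave 5 members higher, where 0.862% of all genes were. For runs E and F together against the other runs, and for the 10-week against the 9-week arrays, limma called 0 members and 0 of all genes. At an unadjusted p under 0.05 there were 0 members in both tests, and 1718 and 234 of all genes.

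**Figure D3:**
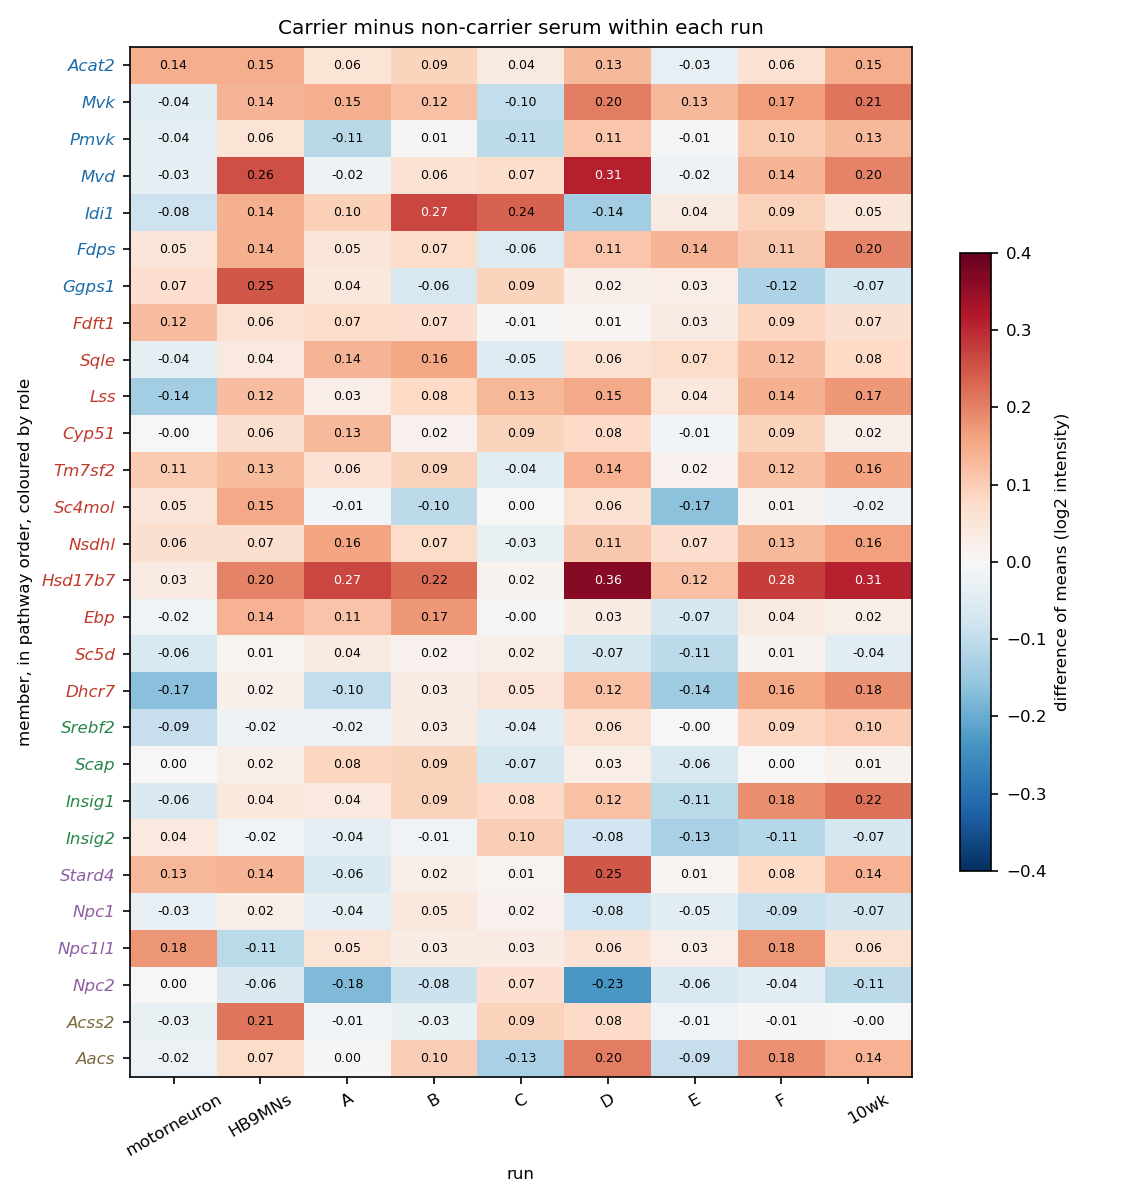
Difference of the mean log2 intensities, carrier minus non-carrier serum (colour and printed value), for each of 28 members (y axis, pathway order, coloured by role) in each of 9 runs (x axis). The row of Hsd17b7 is positive throughout, from 0.02 in run C to 0.36 in run D, and the columns HB9MNs and F are positive for 18 and 17 of the 18 enzymes.

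Levels of the members differed more between runs than between sera. All 28 members differed between runs at an adjusted p under 0.05 by limma's moderated F test, as did 94.0% of all genes. The share of a member's variance that lay between runs was 79.3% at the median, from 32.3% for Hsd17b7 to 91.0% for Fdft1, and 62.5% at the median of all genes. In several runs most enzymes lay on the same side of their own mean. In the runs HB9MNs and C all 18 lay above their own mean over the runs, by a median of 0.33 and 0.19 on the log2 scale, and in the run 10wk all 18 lay below, by 0.30. In run E 17 lay below, with a median of -0.24. The other runs had 15 (A and D), 12 (B), 10 (motorneuron) and 4 (F) of the 18 above. The same count over all genes was not made, so these counts do not show a trait particular to the enzymes. Idi1 spanned the widest range among them, from 0.73 above its mean in the run HB9MNs to 0.73 below in the run 10wk. Lss ran from 0.51 above in HB9MNs to 0.62 below in run E, and Sqle was lowest in the run motorneuron, at -0.64, where Insig1 and Lss were high at 0.50 and 0.35. Srebf2 spanned less, from 0.17 in HB9MNs to -0.26 in run E. The run 10wk is the only run with 10-week arrays, so its low enzyme levels and the age in the labels cannot be told apart.

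**Figure D4:**
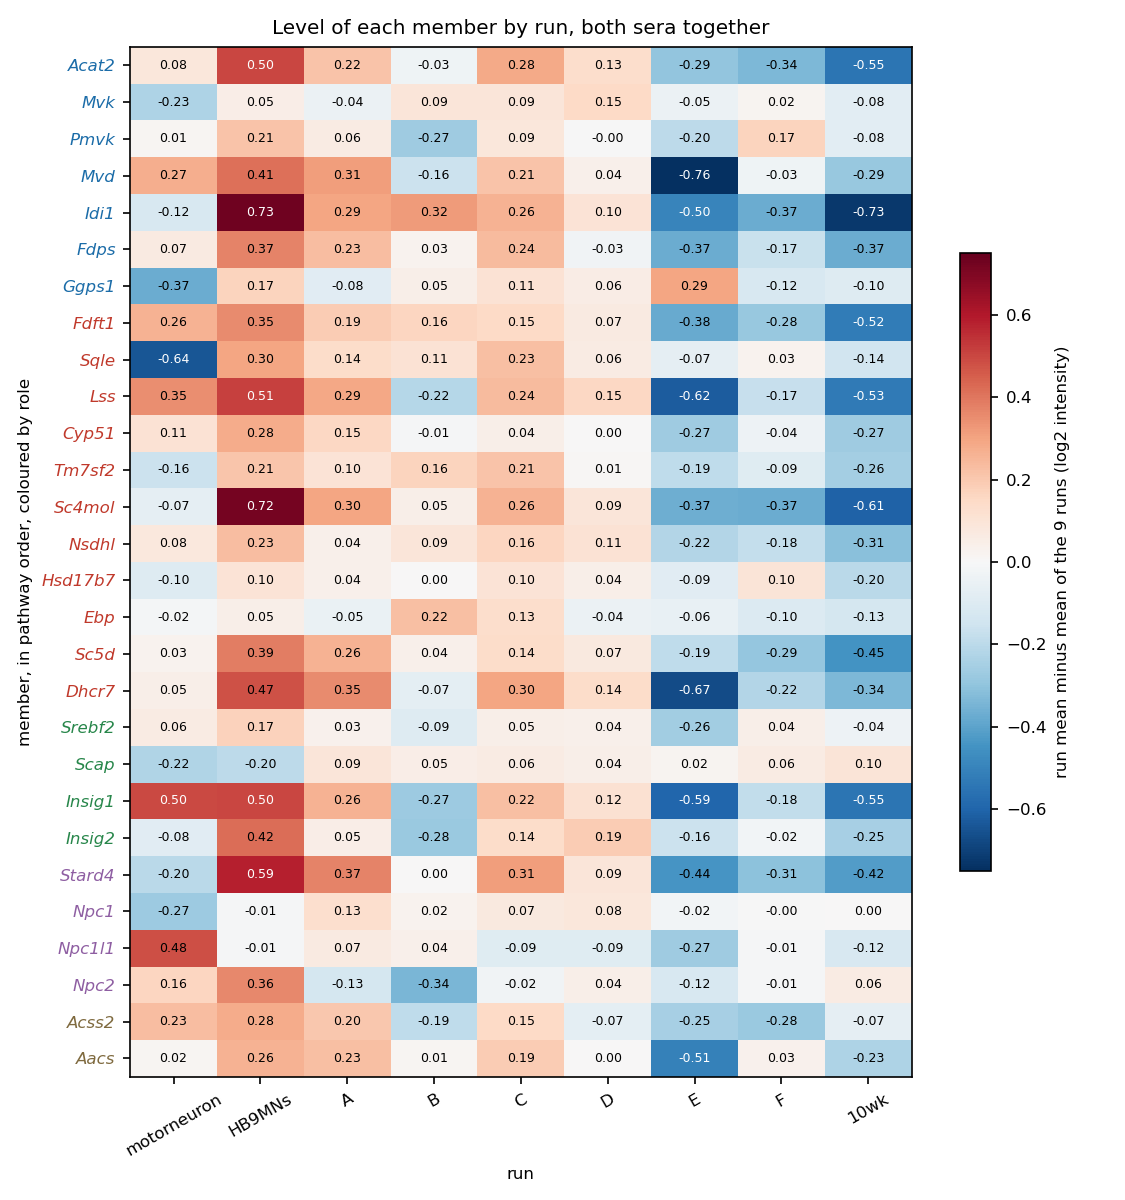
Level of each of 28 members (y axis, pathway order, coloured by role) in each of 9 runs (x axis), as the run mean minus the mean of the 9 runs in log2 intensity, both sera together. Enzymes are high in the run HB9MNs, for example Idi1 at 0.73, and low in the runs E and 10wk, where Lss is at -0.62 and -0.53.

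The members also varied together from array to array within a run and serum. After removing the mean of each run and serum, the 153 pairs of enzymes had a median Pearson's r of 0.45 over 59 arrays, 132 of them were positive and 67 were above 0.5. Between enzymes and all other genes the median r was -0.04. Arrays of a run may share their batch of embryoid bodies, which the labels do not give, and without the 2 arrays least alike to their runs the median over enzyme pairs was 0.43. Lss and Insig1 (r 0.83, Spearman's rho 0.76), Srebf2 and Dhcr7 (0.83, rho 0.72) and Cyp51 and Sc5d (0.83, rho 0.87) were close pairs, at 0.81, 0.80 and 0.84 without those 2 arrays. Hsd17b7 was most like Nsdhl (0.72, rho 0.63), and its median r with the other enzymes was 0.48. Fdft1 had the highest median r with the other enzymes, at 0.64, while Ggps1 stood at 0.08, Acss2 at 0.16, Npc1 at -0.01 and Npc1l1 at -0.09. Ggps1 ran against Srebf2 (r -0.61) and Mvk (r -0.55) but with Sc4mol (r 0.54) and Idi1 (r 0.51). Idi1 in turn ran weakly against Mvk (r -0.26) and Pmvk (r -0.29). For genes outside the list, likeness to Hsd17b7 was taken from residuals of the fit with run and serum as terms. That measure differs from the one used for the pairs above. Mfsd2a (r 0.70), a carrier of lysophospholipids, Atp8a2 (0.68), a phospholipid flippase, and Gart (0.66), an enzyme of purine synthesis, were among the 5 rows most like Hsd17b7. None of these 3 passed the adjusted threshold for serum.

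**Figure D5:**
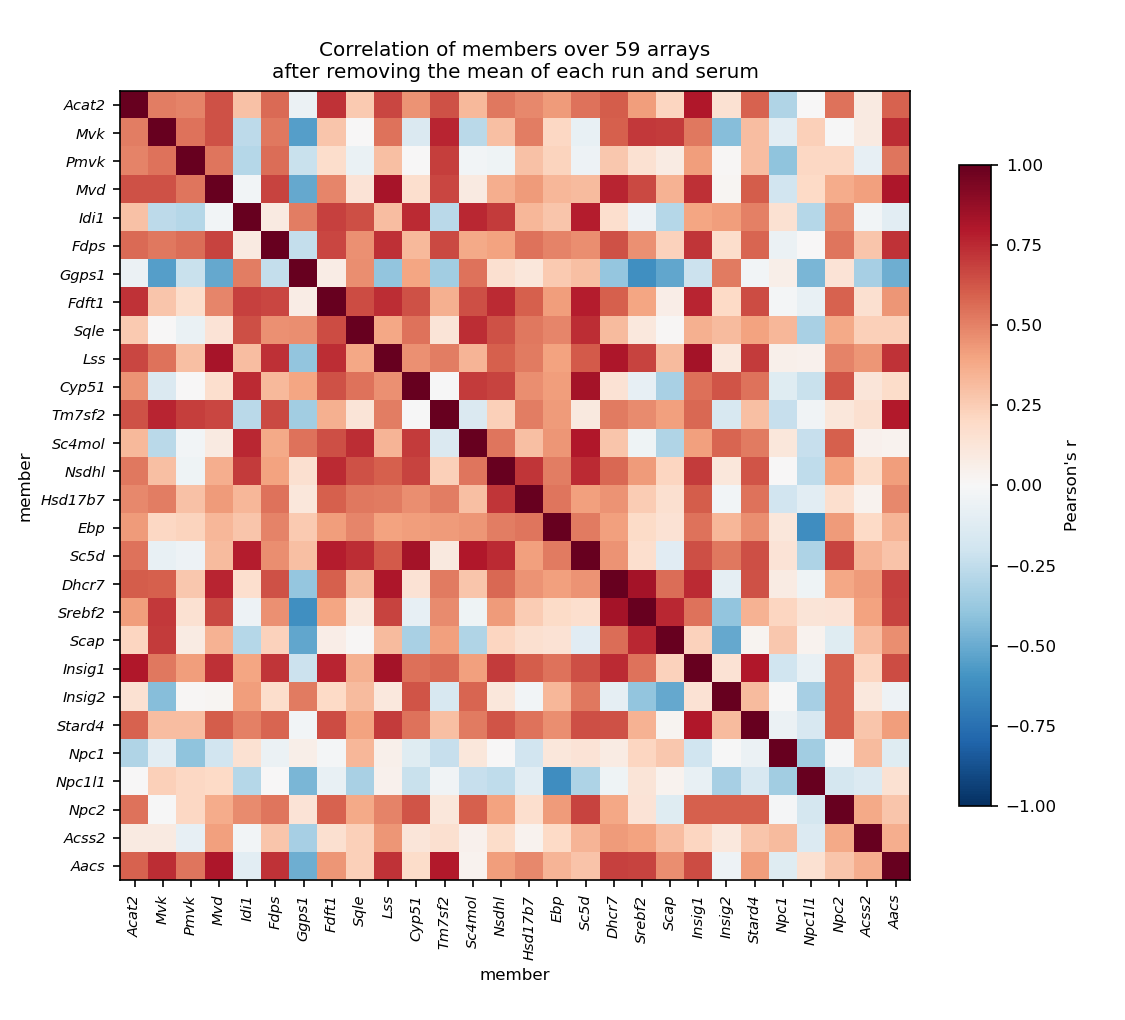
Pearson's r (colour) between each pair of 28 members (both axes, pathway order) over 59 arrays after removing the mean of each run and serum. Red blocks mark members that vary together, such as Lss and Insig1 at 0.83, and the lines of Npc1 and Npc1l1 are mostly pale or blue. The line of Ggps1 is mixed, red with Sc4mol at 0.54 and Idi1 at 0.51 and blue with Mvk at -0.55.

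Genes next to the route were read from lists written for comparison. Of 16 genes of fatty acid synthesis and SREBP1, the sister factor that drives lipogenesis, 11 lay higher, 1 rose and 1 fell past the adjusted threshold. Elovl6, an elongase of saturated fatty acids, rose by 0.09 (SE 0.02, adjusted p 0.0250 by limma, higher in 8 of 9 runs), and Fads1, a desaturase of polyunsaturated fatty acids, fell by 0.06 on the log2 scale (adjusted p 0.0320, lower in 7 runs). Of 12 enzymes that use isoprenoids, 3 lay higher and none passed, with Fnta, a farnesyltransferase subunit, at -0.08 (adjusted p 0.0830). Of 13 genes of sterol storage, movement and oxidation, 4 lay higher and 1 fell, Soat1, which esterifies cholesterol, at -0.07 (SE 0.02, adjusted p 0.0476).

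LXR is a receptor for oxysterols that switches on the export of cholesterol. Of 6 genes for LXR and its targets, 2 lay higher and 1 fell. That was Abca1, which exports cholesterol to lipoproteins. Its difference was -0.14 (SE 0.02, adjusted p 0.00118 by limma), and its mean was lower with carrier serum in 9 of 9 runs. In runs D, E, F and 10wk all carrier arrays lay below all non-carrier arrays, for example at 201 to 214 against 228 to 274 in the run 10wk. Abcg1, another LXR target and exporter, stood at -0.01 (adjusted p 0.875), and Mylip, a target that degrades lipoprotein receptors, at 0.05 (adjusted p 0.286).

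Of the 10 motor neuron and neuron markers with a row, 3 rose with carrier serum in the same fit, 0 fell past the adjusted threshold, and 5 lay higher and 5 lower. Slc5a7, the choline transporter of cholinergic neurons, rose by 0.15 (adjusted p 0.0410 by limma), Snap25 by 0.07 (adjusted p 0.0166) and Stmn2 by 0.06 (adjusted p 0.0400), while Tubb3 stood at -0.03 (adjusted p 0.492), Rbfox3 at -0.06 (adjusted p 0.241, lower in 8 of 9 runs), Chat at -0.02 (adjusted p 0.533, lower in 7) and Isl2 at 0.09 (adjusted p 0.195, higher in 7). Of the genes that mark stages of motor neuron formation, Olig2 stood at -0.09 (adjusted p 0.0936), Lhx3 at -0.09 (adjusted p 0.105), Mnx1 at -0.03 (adjusted p 0.588) and Isl1 at 0.05 (adjusted p 0.114). The log2 difference in the summed intensity was 0.03 for the motor neuron list, 0.03 for the neuron list, 0.03 for astrocytes and radial glia and 0.06 for pluripotent cells. Among the other markers, those of motor neuron progenitors (4 of 5 with a row), oligodendrocytes (5 of 5), visceral endoderm or liver (4 of 4) and blood (2 of 4), none passed the adjusted threshold, and their summed levels differed by -0.01, 0.00, 0.04 and 0.03. The part of these cell types in the changes of Hsd17b7 and the other enzymes was not tested. When the levels of Lhx3, Isl1, Mnx1 and Olig2 were added to the fit next to the run, the difference of Hsd17b7 was 0.19 with an adjusted p of 9.98e-04 by limma.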

How the data were processed

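Embryoid body RNA from 59 cultures was measured on Affymetrix MoEx-1_0-st-v1 arrays. The authors summarised the arrays with RMA in aroma.affymetrix, took the mean of the exons of each gene, and deposited linear intensity values for 19613 symbols, after removing outlier arrays. The labels also name Affymetrix Expression Console. The genome build is not given in the sources used here. The methods describe a later correction by 4 motor neuron genes, whose output is a log2 ratio to a predicted level. The deposited values are linear intensities with array medians of 151 to 183, so they are not that output, though the sources do not say so. Normalization across all arrays could hide a shift shared by most genes.

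Log2 intensities (0 added, no filter) were modelled in limma 3.58.1 (lmFit, eBayes; R 4.3.3) with serum and run as terms, two-sided, with Benjamini-Hochberg adjustment over 19613 rows at 0.05. The labels name no batch: 9 runs were read from shared words and numbers in the titles. Run C, with 11 arrays, is larger than any group that the paper describes as assayed with 1 batch. It therefore probably holds more than 1 batch, and a fit with run C parted into 2 blocks is given below. The labels do not say whether arrays shared a donor, so p-values may measure technical spread, and the number of arrays limits the precision. No 2 arrays held identical values (highest r 0.997). The members, the lists and the tests were chosen with earlier results of these data known. Named genes were all members, context genes past the threshold, and the rows most like the called member. Some of these genes, and 1 context list, are not reported here. Fnta, Abcg1, Mylip and the values of Tubb3 were added after their values were seen. Promoters came from RefSeq (GRCm38.p6). The fit was tested on simulated data. Alternatives covered the block, covariates, scaling, a filter on dim rows, the variance model, array weights and left-out runs.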

Additional observations from a re-analysis of the deposited data

How the results depend on the processing

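Hsd17b7 lay higher with carrier serum under 22 alternatives, by 0.16 to 0.22 on the log2 scale, and passed the adjusted threshold in 20 of them, with no block for the run (adjusted p 0.286) and in runs E and F alone (0.267) as exceptions. The count of members called higher was 0 with no block for the run and 0 in runs E and F alone, and 0 of all genes were called higher in either. With run C parted into 2 blocks it was 2 (1.05% of all genes), and with quantile normalization 2 (0.918%). With dim rows left out it was 2 (1.48% of the rows kept) and with trend and robust variance 2 (0.734%), Nsdhl being the other member each time. It was 10 with Olig2, Mnx1, Isl1 and Lhx3 beside the run (2 members lower), 12 with array weights (1 lower), 6 without run C (1 lower) and, chosen after seeing the data, 5 without the 2 arrays least alike to their runs. The share of all genes called higher in these 4 settings was 20.1%, 6.95%, 3.48% and 0.862%, against 0.683% in the fit reported. In the first 3 of them 2174, 1440 and 918 of all genes were called lower, against 323. The 8 other left-out runs gave 1 each, where 0.112% (10wk) to 1.26% (HB9MNs) of all genes were called higher. With no block 0 of all genes passed, 805 at an unadjusted p under 0.05. The causes were not tested.

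Titles share numbers in 3 runs. The deviations of same-numbered arrays correlated at -0.13 to 0.33 over 8 pairs, 1 above 0.1, so the numbers were not taken as pairs. A replicate block over them gave 2 members higher, Nsdhl and Hsd17b7 (0.20), where 0.882% of all genes were.

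Some members, most of them near 0, changed sign. Pmvk stood at -0.0022 with arrays centred on their median, -0.0059 outside runs E and F, -0.0091 without run D, -0.0061 without run F and -0.0090 without the run 10wk. Srebf2 stood at -0.00067, -0.0022, -0.00044, -0.0023 and -0.0042 under the same settings in that order. Scap stood at -0.0015 with the replicate block, -0.0025 centred, -0.032 in runs E and F alone, -0.0043 without run A and -0.0049 without run B. Sc4mol stood at 0.0018 with no block, 0.0035 with the replicate block, 0.0077 with quantile normalization, 0.012 outside runs E and F, 0.0048 without run B, 0.012 without run E and 0.012 without the 2 arrays. Ggps1 stood at -0.075 with Olig2, Mnx1, Isl1 and Lhx3 beside the run, -0.048 with them in its place and -0.049 in runs E and F alone. In the first of these settings Ggps1 was called lower, at an adjusted p of 0.0294 by limma. Idi1, at 0.08 in the fit reported, stood at -0.027 with the same genes beside the run. In runs E and F alone Ebp stood at -0.017 and Acss2 at -0.011. Dhcr7 stood at -0.00059 without the run 10wk, and Insig2 at 0.00017 outside runs E and F.

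Outside the list, Abca1 lost the threshold in 3 alternatives, Elovl6 in 10, Soat1 in 11 and Fads1 in 12, each without a change of sign. No signal over background was given with the deposited values, so the limit of detection of dim rows is unknown.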
